A study of Mus musculus with 141 samples.

Results

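The genes described here are 6 podocyte genes, Nphs1, Podxl, Synpo, Ptpro, Plce1 and Cd2ap, chosen by symbol from the 24423 genes listed for each library. All 6 symbols were found, and each was followed through the kidney, lung and liver of 47 Collaborative Cross strains. Reads were counted for 5 of them, and Ptpro was listed at 0 in every library.

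Podocytes are the epithelial cells that wrap the capillaries of the kidney glomerulus with interlocking foot processes. Neighbouring foot processes are bridged by the slit diaphragm, a protein sheet built around nephrin that holds back plasma protein during filtration, and its loss leads to protein in the urine. Nphs1 encodes nephrin itself, Cd2ap an adaptor that ties the diaphragm to the cytoskeleton, Synpo the actin-associated protein synaptopodin, Podxl the charged sialomucin podocalyxin of the cell surface, Plce1 the signalling enzyme phospholipase C epsilon, and Ptpro a receptor tyrosine phosphatase of the foot process membrane.

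RNA-seq was run on whole kidney, lung and liver from 1 adult male mouse of each of 47 strains, which gave 47 libraries per tissue. The Collaborative Cross is a panel of recombinant inbred strains bred from a common set of founders. All mice were 8-12 weeks old, ate an NTP 2000 wafer diet, spent 6 hours a day on weekdays over 2 weeks in chambers of clear air, and were killed under deep nembutal anaesthesia. With 1 mouse per strain, strain, mouse and library cannot be told apart, and p-values across strains measure the spread between these mice.

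Total counts ranged from 3046695 to 15028553 in kidney, from 2829104 to 17585682 in lung and from 1738046 to 42158454 in liver. Tissue labels matched their markers: all 6 tested proximal tubule genes were higher in kidney than in lung and in liver, all 4 hepatocyte genes were higher in liver than in kidney and in lung, and all 4 tested lung epithelium genes were higher in lung than in kidney and in liver. Levels between tissues are given as CPM, read counts per library total, scaled by TMM, a factor that corrects for library composition. Levels between genes are given as TPM, a unit that also divides by transcript length. A difference was called at q ≤ 0.1 (limma-voom with Benjamini-Hochberg adjustment over 11879 genes) and a log2 fold change of 1 or more in either direction.

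The number of transcripts listed for a gene bears on what its count holds. Nphs1, Podxl, Plce1 and Cd2ap are listed with 1 transcript each, Synpo with 2 and Ptpro with 4. In kidney, 29.1% of the 18311 genes with 1 transcript had a median count over 100, against 6% of 3401 genes with 2 transcripts and 3.17% of 1292 genes with 4 or more. Gapdh, a glycolytic enzyme that every cell uses, has 2 listed transcripts and was listed at 0 in 84 libraries, with a highest count of 47. The level of Synpo is therefore compared between libraries but ranked against the other genes only with this limit, and the 0 of Ptpro is a listed value that does not show the gene to be silent. Ptpro spans chromosome 6, 137200820 to 137413150, plus strand, in NCBIM37, the build of the files.

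Within the kidney, Cd2ap and Podxl had the highest TPM of the set, with medians of 86.1 and 84.4. Podxl had the higher TPM in 23 kidneys and Cd2ap in 24, so these neighbours in the order did not differ beyond their spread. Nphs1 followed with a median TPM of 10.5, above Plce1 in 47 of 47 kidneys and above Synpo in 46. Synpo at 6.14 and Plce1 at 5.64 were not separated, since Synpo was higher in 28 kidneys and Plce1 in 19. In lung the order by TPM changed to Podxl (median 244), Cd2ap (103), Plce1 (43.9) and Synpo (19.6), and these 4 genes kept that order in 47 of 47 lungs. In liver Cd2ap led with a median TPM of 30.3, while Plce1 at 5.02 and Podxl at 4.26 overlapped, with Plce1 higher in 32 livers.

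**Figure D1:**
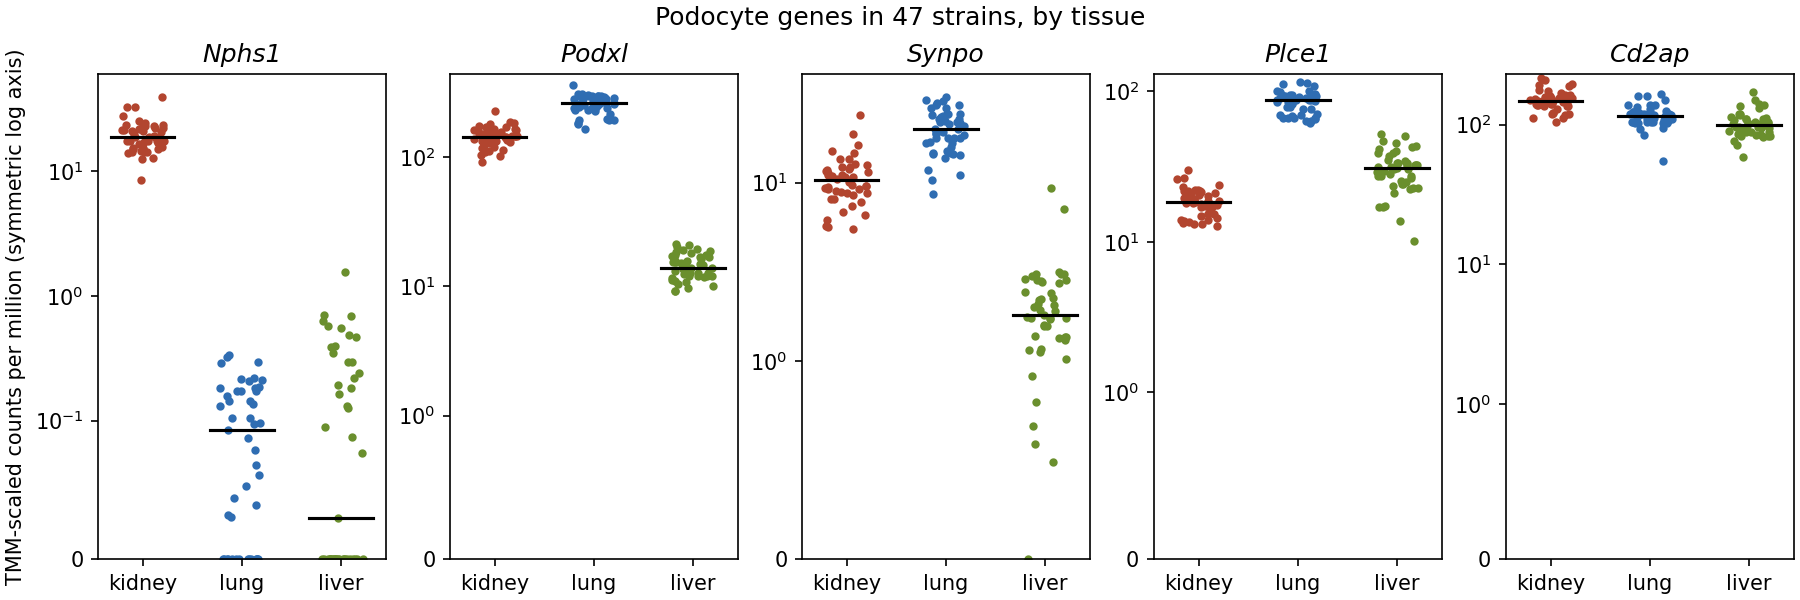
TMM-scaled CPM of the 5 podocyte genes with reads, 1 point per strain and tissue, on a symmetric log axis that includes 0, with the median of 47 libraries as a bar. Nphs1 is high in kidney alone, Podxl, Synpo and Plce1 are highest in lung, and the 3 tissues lie close together for Cd2ap.

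Nphs1 was the kidney gene of the set. It lies on chromosome 7, 31243334 to 31272242, plus strand (NCBIM37). Its level in kidney ranged from 8.44 CPM in CC020 to 39 CPM in CC004, with a median of 18.7 CPM and a mean of 19.5 ± 5.65 (SD, n = 47). In lung the counts were 0 to 4 with a median of 1, and in liver 0 to 8 with a median of 1. The lowest kidney (8.44 CPM) lay above the highest lung (0.333 CPM) and the highest liver (1.55 CPM), and the groups did not overlap. Pooled over strains, 9139 kidney counts stood against 65 in lung and 48 in liver, a level 204-fold that of lung (95% exact interval 160-265) and 129-fold that of liver (96.9-175). The intervals cover counting error only. In bulk tissue, fewer cells of a type and less RNA per cell cannot be told apart. The fitted log2 difference was 7.35 ± 0.12 (SE) for kidney against lung (q = 1.2e-79) and 6.58 ± 0.12 for kidney against liver (q = 8.8e-75), and its size depends on the small count added to the near-empty tissues. Nphs1 passed the filter on low counts through kidney alone, so it had to differ, and no fold is given between liver and lung, where 45 of 47 livers and 43 of 47 lungs held at most 3 counts.

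The promoters of Nphs1 and Cd2ap are shown because these genes lie at the ends of the set, Nphs1 with reads almost only in kidney and Cd2ap with the smallest differences between tissues on the TMM scale. RefSeq promoter windows (GRCm38.p6, 250 bases before to 50 after the gene start) were matched for Nphs1, Ptpro, Plce1 and Cd2ap, 4 of the 6 genes. The windows are at chr7:30459808-30460107 on the plus strand for Nphs1 and at chr17:42876375-42876674 on the minus strand for Cd2ap, and capitals mark each CG pair.
Nphs1: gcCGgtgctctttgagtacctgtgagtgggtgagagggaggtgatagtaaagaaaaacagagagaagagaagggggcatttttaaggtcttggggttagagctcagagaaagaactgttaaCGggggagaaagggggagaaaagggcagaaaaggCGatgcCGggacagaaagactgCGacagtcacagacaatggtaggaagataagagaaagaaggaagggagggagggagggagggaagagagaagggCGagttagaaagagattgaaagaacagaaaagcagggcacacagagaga
Cd2ap: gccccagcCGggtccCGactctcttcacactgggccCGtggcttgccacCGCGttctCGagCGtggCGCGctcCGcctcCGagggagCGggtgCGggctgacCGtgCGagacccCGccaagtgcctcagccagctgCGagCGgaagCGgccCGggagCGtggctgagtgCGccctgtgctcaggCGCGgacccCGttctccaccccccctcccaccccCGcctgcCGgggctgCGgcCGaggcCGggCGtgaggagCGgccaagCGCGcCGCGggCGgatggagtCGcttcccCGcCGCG
The Nphs1 window held 6 CG pairs at 49.7% GC, and the Cd2ap window 41 at 77% GC. Over 32851 windows of the same length the median was 7 CG pairs, and 43.6% held fewer than Nphs1 while 96.5% held fewer than Cd2ap. Ptpro held 5 CG pairs (38% of windows held fewer) and Plce1 8 (51.4%). On either strand, GATAAG was found in the Nphs1 and Ptpro windows (in 7.44% of all windows), GGGCGG and CAGCTG in Cd2ap alone of the 4 (35.7% and 16.3%), and TAAACA and TAATTA in none of the 4 (13.4% and 5.29%). These are letter matches and not binding sites.

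Podxl was a gene of lung as much as of kidney. Podocalyxin coats podocytes and is also made by vascular endothelium. The gene lies on chromosome 6, 31469488 to 31513981, minus strand (NCBIM37). Its level was 91.5 to 229 CPM in kidney (median 144), 166 to 366 CPM in lung (median 265) and 9.26 to 21.5 CPM in liver (median 14). Lung was above kidney in 47 of 47 strains although the ranges overlapped, and the highest liver was below the lowest kidney. The log2 difference was −0.85 ± 0.05 for kidney against lung (q = 1.3e-30), under the size threshold. It was 3.33 ± 0.05 for kidney against liver (q = 2e-80) and −4.18 ± 0.05 for liver against lung (q = 1.1e-89). With other scalings the kidney and lung difference passed the threshold, at −1.05 with DESeq2 size factors and −1.33 with total counts. Endothelial markers moved the same way between kidney and lung: 5 of 6 tested were called higher in lung (24.5% of all genes). The other, Ehd3, was called higher in kidney (22.2%). The summed level of the 8 markers was 181 to 313 CPM in kidney against 835 to 1487 CPM in lung, with no marker at a median of 0 in either. Mesothelial markers did so too, with 5 of 5 called higher in lung (24.5% of all genes) and sums of 2.58 to 17.8 CPM in kidney and 58.7 to 185 CPM in lung. Pecam1, Lrrn4 and Krt19 did not pass the filter on low counts within the kidney libraries alone, so the filter favoured their calls. In liver, where Podxl was lowest, the endothelial markers summed to 230 to 410 CPM and the mesothelial markers to 1.31 to 14.3 CPM. The part of either cell type in the Podxl differences was not tested.

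Synpo followed the same order of tissues at a lower level. Synaptopodin organises actin in foot processes and in the dendritic spines of neurons. The gene lies on chromosome 18, 60753627 to 60819796, minus strand (NCBIM37). Its level was 5.53 to 23.9 CPM in kidney (median 10.4), 8.64 to 30.1 CPM in lung (median 19.9) and 0 to 9.33 CPM in liver (median 1.81), where 4 of 47 libraries held at most 3 counts. Lung was above kidney in 45 of 47 strains and kidney above liver in 46, and the ranges of each pair of tissues overlapped. The log2 difference was −0.96 ± 0.09 for kidney against lung (q = 1.3e-17), 2.43 ± 0.10 for kidney against liver (q = 5e-44) and −3.39 ± 0.10 for liver against lung (q = 1e-56). The first of these stayed under the size threshold and passed it at −1.16 with DESeq2 size factors and −1.41 with total counts. Synpo2, its muscle relative, was also higher in lung than in kidney, by 3.13 on the log2 scale. The 5 smooth muscle markers were all called higher in lung (24.5% of all genes), with sums of 30.1 to 128 CPM in kidney and 192 to 973 CPM in lung. Myh11 did not pass the filter on low counts within the kidney libraries alone, so the filter favoured its call. The part of smooth muscle in the Synpo difference was not tested.

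Plce1 was highest in the lung. Phospholipase C epsilon cleaves a membrane lipid into second messengers downstream of small GTPases, and its mutation causes a childhood nephrotic syndrome. The gene lies on chromosome 19, 38598687 to 38859588, plus strand (NCBIM37). Its level was 12.7 to 30.1 CPM in kidney (median 18.5), 61.7 to 115 CPM in lung (median 87.2) and 10.1 to 52 CPM in liver (median 30.9). The lowest lung was above the highest kidney and the highest liver. Lung exceeded kidney by a log2 difference of 2.22 (kidney against lung −2.22 ± 0.06, q = 3.1e-59, 4.64-fold) and liver against lung was −1.47 ± 0.06 (q = 4.5e-44). Kidney against liver was −0.74 ± 0.06 (q = 5.3e-22), under the size threshold, with liver higher in 42 of 47 strains. That direction rested on the scaling, since it was 0.17 with total counts (q = 0.284) and 0.16 on the log2(TPM + 1) scale (q = 0.115).

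On the TMM scale Cd2ap varied least between tissues. CD2-associated protein links nephrin to actin and also serves endocytosis in many cell types. The gene lies on chromosome 17, 42929900 to 43013373, minus strand (NCBIM37). Its level was 105 to 214 CPM in kidney (median 147), 54.4 to 166 CPM in lung (median 115) and 59 to 172 CPM in liver (median 99.6), and all 3 ranges overlapped. The log2 difference was 0.54 ± 0.04 for kidney against liver (q = 6.1e-22), 0.36 ± 0.04 for kidney against lung (q = 6.2e-13) and −0.18 ± 0.04 for liver against lung (q = 4.7e-05), none past the size threshold. Kidney was above lung in 43 of 47 strains on this scale, while the difference was −0.12 with total counts (q = 0.417) and −0.22 on the log2(TPM + 1) scale (q = 0.0228). With total counts Cd2ap passed the threshold in kidney against liver (1.41, q = 4e-17) and in liver against lung (−1.54, q = 1.8e-19), and on the log2(TPM + 1) scale it did so at 1.40 and −1.62. Total counts moved the median of all genes by 0.88 for kidney against liver, −0.48 for kidney against lung and −1.36 for liver against lung.

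Leaving aside Nphs1, whose call the filter fixed, Podxl and Synpo of the other 4 genes with reads were called higher in kidney than in liver, where 21.8% of all genes tested were, and 0 were called higher in liver (15.1% of all genes). Against lung, 0 of the 4 were called higher in kidney (22.2% of all genes) and Plce1 was called higher in lung (24.5%). Between liver and lung, 0 of the 4 were called higher in liver (24.4% of all genes) and Podxl, Synpo and Plce1 were called higher in lung (30.7%).

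The other genes of the slit diaphragm were called in both directions between kidney and lung. Of 12 slit diaphragm genes 9 were tested. Of these, 2 were called higher in kidney (22.2% of all genes), 3 higher in lung (24.5%) and 4 were not called. Their median log2 difference was −0.36 against 0.04 over all genes. Magi2, a scaffold that binds nephrin, was among those higher in kidney (2.49 ± 0.17, q = 7.5e-26). Trpc6, a calcium channel mutated in inherited kidney disease, had a median of 6.91 CPM in lung and 2 counts in kidney. Trpc6 passed the filter on low counts through lung alone, so it had to differ. Tjp1 (−1.95 ± 0.06) and Fyn (−1.64 ± 0.14), a junction scaffold and a kinase that phosphorylates nephrin, were also higher in lung. Fyn did not pass that filter within the kidney libraries alone, so the filter favoured a lower level there. Fat1 (−0.11), Crb2 (−0.06), Nck1 (−0.44) and Nck2 (−0.36) were under the size threshold. Kirrel, Kirrel2 and Kirrel3, the partners of nephrin across the slit, did not pass the filter on low counts.

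Against liver, 4 of the 9 slit diaphragm genes were called higher in kidney (21.8% of all genes), Magi2, Crb2 and Nck2 among them, and 0 higher in liver (15.1%). Their median was 0.92 against 0.06 over all genes. Tjp1, Nck1 and Fyn were lower in kidney at −0.31, −0.78 and −0.61 and turned to 0.60, 0.08 and 0.23 with total counts. Of the 9, 8 were called higher in lung than in liver (30.7% of all genes), Trpc6 again through the filter, and 0 higher in liver (24.4%).

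Among the podocyte transcription factors 5 of 7 were tested. Foxc2 (1.95 ± 0.16) and Foxc1 (1.33 ± 0.11), forkhead factors of glomerular development, were higher in kidney than in lung, and Tcf21 (−1.92 ± 0.07), which also acts in lung mesenchyme, was higher in lung. Wt1, the zinc finger factor that defines the podocyte lineage and is also made by mesothelium, was 1.96 to 8.19 CPM in kidney and 0.832 to 4.85 CPM in lung, a log2 difference of 0.89 ± 0.13 (q = 1.4e-09). Against liver, 4 of the 5, Wt1, Tcf21, Foxc1 and Foxc2, were called higher in kidney (21.8% of all genes) and 1 higher in liver (15.1%). Lmx1b and Dach1 did not pass the filter.

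The wider lists of the glomerulus are read beside the shares over all genes, of which 22.2% were called higher in kidney and 24.5% in lung, and nothing particular to such short lists was tested. Of 11 actin cytoskeleton genes 2 were called higher in kidney and 4 higher in lung. The 2 were Slc9a3r1 (2.84), whose product binds podocalyxin and is abundant in proximal tubule, and Ddn, which encodes dendrin, a slit diaphragm protein with a median of 5.48 CPM in kidney and 1 count in lung. Ddn passed the filter on low counts through kidney alone, so it had to differ. Slc9a3r2, whose product also binds podocalyxin, was higher in lung (−2.92). Of 9 basement membrane genes 7 were called higher in kidney than in liver, where 21.8% of all genes were. Against lung, 0 were called higher in kidney and 2, Lamc1 (−1.81) and Lamb2 (−1.71), higher in lung. The last of these counts moved with the scaling, to 5 with DESeq2 size factors and 7 with total counts. Of 6 secreted and surface genes 0 were called higher in kidney than in lung and 4 higher in lung, led by Clic3 (−4.25), Efnb1 (−1.86) and Sema3g (−1.42).

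Relatives and partners of the chosen genes are given beside the same shares, 22.2% of all genes called higher in kidney and 24.5% higher in lung. Of the sialomucins related to Podxl, Cd34 (−1.89) and Podxl2 (−1.63) were called higher in lung and Emcn (0.91) was not called. Their levels were low, with the sum of the 3 at a median of 3.57 CPM in kidney and 7.93 CPM in lung. Ptprb (−3.30), an endothelial phosphatase of the Ptpro family, was called higher in lung and Ptprj (0.09) was not. Of 5 tested phospholipase C genes 2, Plcb4 (−2.34) and Plcg1 (−1.35), were called higher in lung and 0 in kidney. Of 7 relatives and partners of Cd2ap 3 were called higher in lung, Cd2 (−4.91) and Capzb (−2.99) among them, and 1, Rab4a (2.14), in kidney. Cd2 and Capzb passed the filter on low counts within the lung libraries but not within the kidney libraries, so the filter favoured their calls. Of 143 genes over all the lists 32 were not tested, and 27 of these have 2 or more listed transcripts, against 24 of the 111 tested.

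**Figure D2:**
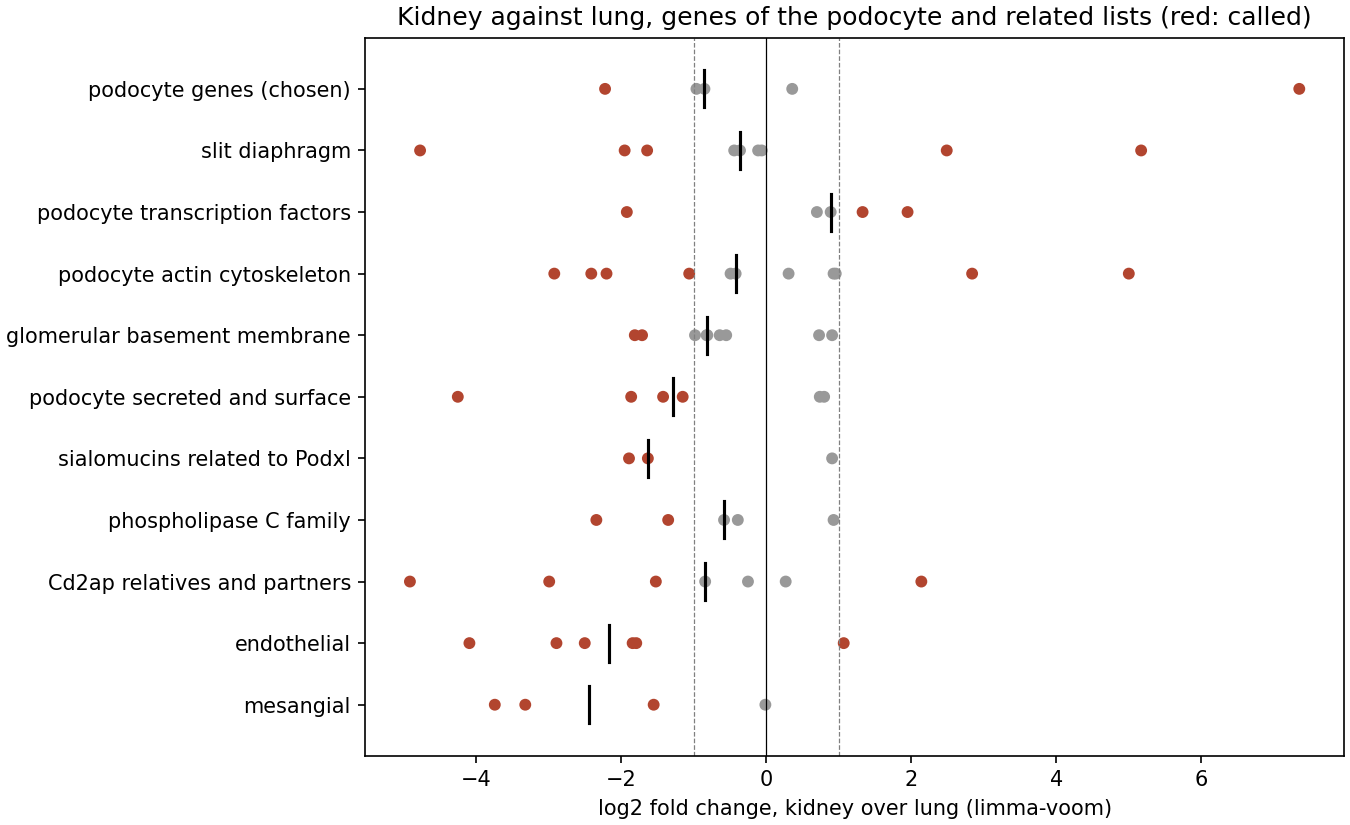
Log2 fold change of kidney over lung (x axis, limma-voom) for each tested gene of the podocyte genes and the related lists (y axis), with the median of each list as a black bar, called genes in red and dashed lines at −1 and 1. Nphs1 at 7.35 is the largest difference shown, and genes lie on both sides of 0 in most lists.

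The next question was whether the podocyte genes vary together from mouse to mouse. Across strains the 5 genes varied in kidney with a biological coefficient of variation (spread beyond counting error) of 27% for Synpo, 25.3% for Nphs1, 18.9% for Plce1, 17.3% for Podxl and 16.1% for Cd2ap. The median over 11039 genes was 22.7%. Synpo varied most in liver, at 44.3%, on a median of 10 counts.

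Nphs1 and Podxl rose and fell together across kidneys. On the log2(TMM-normalised TPM + 1) scale Pearson's r was 0.70 (p = 1e-05, the smallest that 100000 permutations can give, two-sided) and Spearman's rho 0.66 (p = 1e-05) over 47 strains. Without the 2 strains farthest from the Nphs1 median, CC020 and CC004, r was 0.60 (p = 2e-05). In the fit over all genes, Podxl rose by 0.173 ± 0.0275 (SE) on the log2 scale per SD of Nphs1 (q = 0.000861 over 11038 genes), and Nphs1 by 0.253 ± 0.0446 per SD of Podxl (q = 0.00333). Of all 11038 genes, Podxl had the highest rho with Nphs1, 0.651 on log2 CPM. Without CC020 and CC004 the slope of Podxl with Nphs1 was 0.134, with q = 0.174.

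Plce1 followed both more loosely. Its r was 0.49 with Nphs1 (p = 0.0005, rho 0.43, p = 0.00285) and 0.41 with Podxl (p = 0.00423, rho 0.41, p = 0.00425), and without the 2 farthest strains both were 0.37 (p = 0.013 and p = 0.0129). Synpo and Podxl had r = 0.45 (p = 0.0019, rho 0.38, p = 0.00925), which fell to 0.25 (p = 0.0943) without the 2 strains farthest in Podxl, so that relation rested on them. Nphs1 and Synpo (r = 0.27, p = 0.0657) and Synpo and Plce1 (r = 0.13, p = 0.402) did not pass. The q over all genes was 0.472 for Plce1 with Nphs1, 0.499 for Plce1 with Podxl and 0.356 for Synpo with Podxl, so of the 10 pairs tested in kidney Nphs1 and Podxl alone passed it.

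Cd2ap stood apart from the others. Its r across kidneys was −0.19 with Nphs1 (p = 0.199), −0.03 with Podxl (p = 0.824), 0.02 with Synpo (p = 0.88) and −0.03 with Plce1 (p = 0.866). These values depended on the scaling within the tissue: on TPM without TMM, r was 0.45 with Nphs1, 0.67 with Podxl, 0.47 with Synpo and 0.63 with Plce1, while Nphs1 and Podxl stayed at the same side of the threshold.

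**Figure D3:**
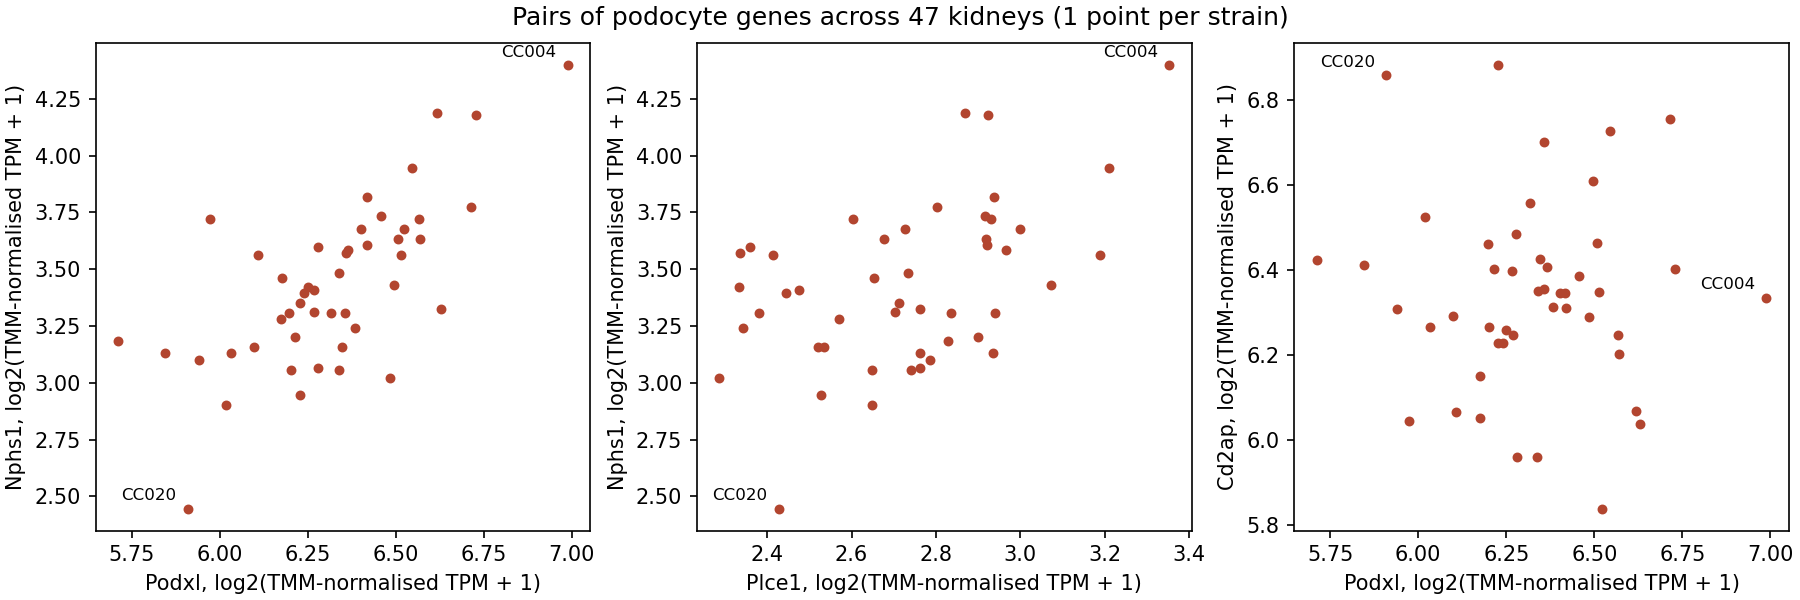
Levels of pairs of podocyte genes in 47 kidneys on the log2(TMM-normalised TPM + 1) scale of both axes, 1 point per strain, with CC004 and CC020 named. Nphs1 rises with Podxl (r = 0.70) and with Plce1 (r = 0.49), and Cd2ap shows no trend with Podxl (r = −0.03).

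The kidney of strain CC004 was the highest of 47 for Nphs1 (39 CPM), Podxl (229 CPM), Synpo (23.9 CPM) and Plce1 (30.1 CPM), and ranked 24 for Cd2ap (147 CPM). Over all genes tested in kidney, 3.13% had their highest level in this library. Of the podocyte lists, 1 of 7 slit diaphragm genes (Magi2), 2 of 5 transcription factors (Foxc2 and Tcf21), 3 of 11 actin cytoskeleton genes (Anln, Ddn and Inf2), 0 of 9 basement membrane genes and 0 of 6 secreted and surface genes were highest there. So were Cdh5 of the endothelial genes, Scnn1g of the collecting duct genes, Plcg1, and both tested lung epithelium genes, Sftpc and Scgb1a1. These names were chosen after their values were seen. The library held 4545230 counts, and its summed lung epithelium markers were the highest of the kidneys, 95.3 CPM against a median of 9.03 CPM. The part of lung RNA in these levels was not tested. Without this library, a step chosen after the data were seen, r was 0.64 for Nphs1 and Podxl (p = 1e-05), 0.41 for Nphs1 and Plce1 (p = 0.00499), 0.32 for Podxl and Synpo (p = 0.0291) and 0.31 for Podxl and Plce1 (p = 0.0374).

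Few genes passed the threshold with Nphs1, Podxl, Synpo or Plce1. With Nphs1, 3 genes rose at q ≤ 0.1 (0.0272% of 11038), Podxl, Ddn (0.341 ± 0.0716, q = 0.0794) and Sema3e (0.287 ± 0.0611, q = 0.0794), which encodes a semaphorin. Without CC020 and CC004 the count was 0, and without CC004 alone it was 1. With Podxl, 5 genes rose (0.0453%), namely Tmem150c, Nphs1, Sema3e, Arhgap28 and Scnn1g, a sodium channel subunit of the collecting duct, and Fam198b fell. The count of 6 was 27 with DESeq2 size factors, 20 without the 2 strains farthest in Podxl, and 3 without CC004. With Synpo 0 genes rose (0% of all genes by limma-voom), although 383 did so at an unadjusted p under 0.05, and with Plce1 1 gene, the non-coding Snhg4, rose (0.00906%). That count was 21 without CC032 and CC042 and 0 without CC004.

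At an unadjusted p under 0.05 the podocyte lists were mixed. With Nphs1, 3 of 7 slit diaphragm genes, 3 of 5 transcription factors and 3 of 6 secreted and surface genes had a slope above 0 at that p and 0 had one below 0, where 4.36% of all genes had a slope above 0. Of 11 actin cytoskeleton genes 2 had a slope above 0 and 2 below 0, Arhgap24 (−0.221, p = 0.00709) and Anln (−0.317, p = 0.0333), and of 9 basement membrane genes 0 had one above 0 and 1, Itgb1 (−0.061, p = 0.045), below 0. The slit diaphragm genes included Crb2 (slope 0.324, p = 0.000331, q = 0.233) and Magi2 (0.189, p = 0.00316, q = 0.467), and the factors were Foxc2, Tcf21 and Wt1. With Podxl the counts above 0 were 3 of 7 slit diaphragm genes, 2 of 5 factors, 2 of 6 secreted and surface genes, 2 of 11 actin cytoskeleton genes and 1 of 9 basement membrane genes, with 0 below 0 in these lists, where 3.98% of all genes were above 0, Wt1 (0.219, p = 0.000711, q = 0.23) being one of the factors. Genes of other cell types were among them too: 2 of 6 proximal tubule genes, Cubn and Slc13a3, and 1 of 3 mesangial genes, Des, with Nphs1, and 2 of 4 collecting duct genes, Scnn1g and Hsd11b2, and 1 of 5 endothelial genes, Ehd3, with Podxl.

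By rank across kidneys the genes most like each member were Podxl, Uaca (rho 0.556) and Kcnq1 (0.545) for Nphs1, Tmem150c (0.659), Nphs1 (0.651) and Insrr (0.598) for Podxl, and Birc3 (0.55), Iqgap1 (0.521) and Ly75 (0.514) for Synpo. For Plce1 they were Ckmt1 (0.598), Sdpr (0.591) and Snhg4 (0.588), and for Cd2ap Eif2ak2 (0.767), Atrx (0.751) and Thoc1 (0.727).

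Cd2ap varied with a large share of the kidney transcriptome. With it 1156 genes rose (10.5% of 11038) and 1329 fell (12%). The strongest included Mphosph8 (0.209 ± 0.0275, q = 8.9e-06), Smchd1 (0.162 ± 0.0228, q = 1.1e-05) and Atrx (0.141 ± 0.0196, q = 1.1e-05), regulators of chromatin, which rose, and Endog (−0.495 ± 0.0703, q = 1.1e-05), a mitochondrial nuclease, which fell. Of 6 proximal tubule markers 4 fell with Cd2ap, among them Slc34a1 (−0.194 ± 0.0397, q = 0.000756) and Slc5a2 (−0.263 ± 0.0586, q = 0.00177), and of 4 inner medulla markers 2 rose, Slc14a2 (0.54 ± 0.16, q = 0.0166) and Slc6a12 (0.505 ± 0.141, q = 0.011). The summed level of the proximal tubule markers ranged from 6929 to 17003 CPM over the kidneys and that of the inner medulla markers from 272 to 1794 CPM, and their part in the relation was not tested.

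**Figure D4:**
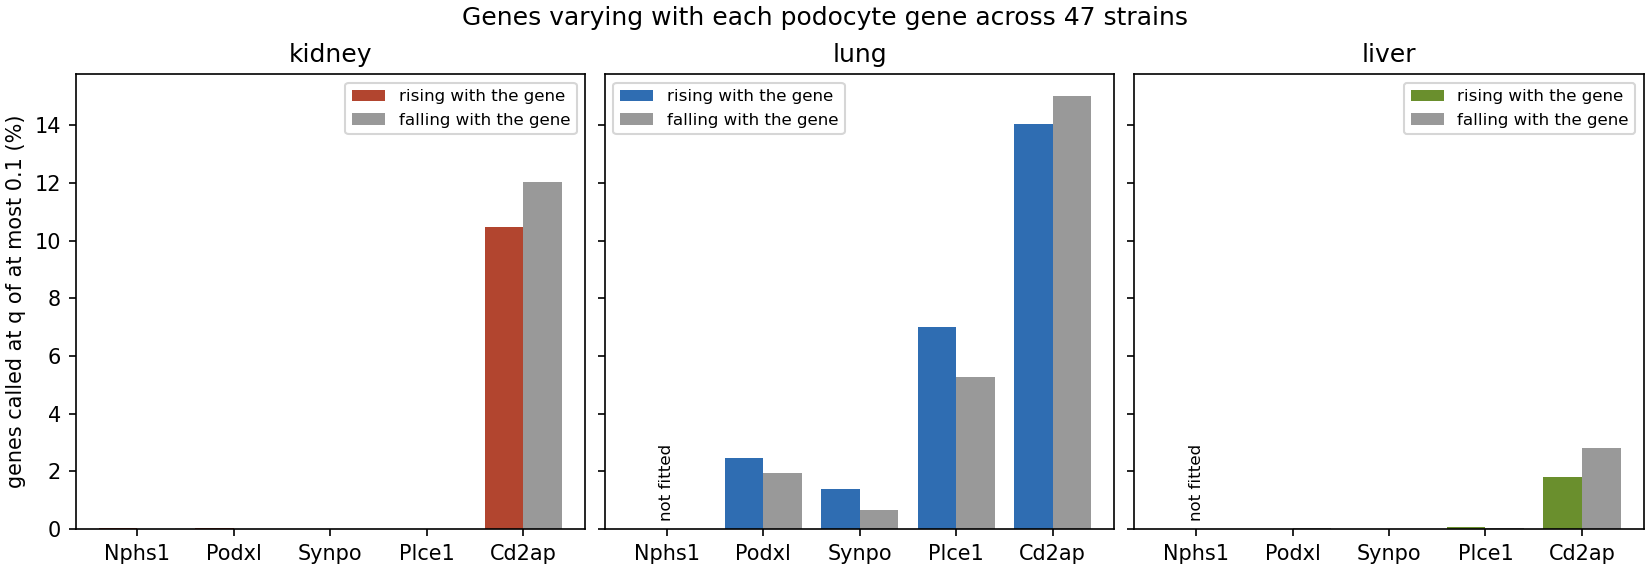
Share of all other genes tested (y axis, percent) that rose (coloured bars) or fell (grey bars) with each podocyte gene across 47 strains at q ≤ 0.1, by tissue. Cd2ap has the highest bars in each tissue, and Nphs1 was fitted in kidney only.

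The relations were then examined in the other tissues, where the fits over all genes were added after the kidney values were seen. In lung, Podxl and Synpo had r = 0.51 (p = 0.00026, rho 0.41, p = 0.00401, and 0.35, p = 0.0203, without the 2 farthest strains), and Synpo rose by 0.218 ± 0.0502 per SD of Podxl (q = 0.00941). Plce1 and Cd2ap had r = 0.45 (p = 0.00097, rho 0.34, p = 0.021, and 0.41, p = 0.00435, without the 2 farthest), and Cd2ap rose by 0.113 ± 0.0341 per SD of Plce1 (q = 0.0413). Synpo and Plce1 had r = −0.31 (p = 0.0368, rho −0.27, p = 0.0679). Of the 6 pairs shared by kidney and lung, the correlation differed between the tissues at an unadjusted p under 0.05 for Plce1 and Cd2ap alone (−0.03 in kidney and 0.45 in lung, p = 0.0394). The kidney value of that pair depended on the scaling, as given above for Cd2ap. Podxl and Plce1, at 0.41 in kidney and −0.01 in lung, differed at p = 0.0647. In liver 6 pairs were computed, and Podxl with Synpo (r = 0.29, p = 0.0481, rho 0.17, p = 0.254) and Podxl with Plce1 (r = −0.30, p = 0.04, rho −0.22, p = 0.145) were at 0.23 (p = 0.132) and −0.16 (p = 0.284) without the 2 farthest strains.

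**Figure D5:**
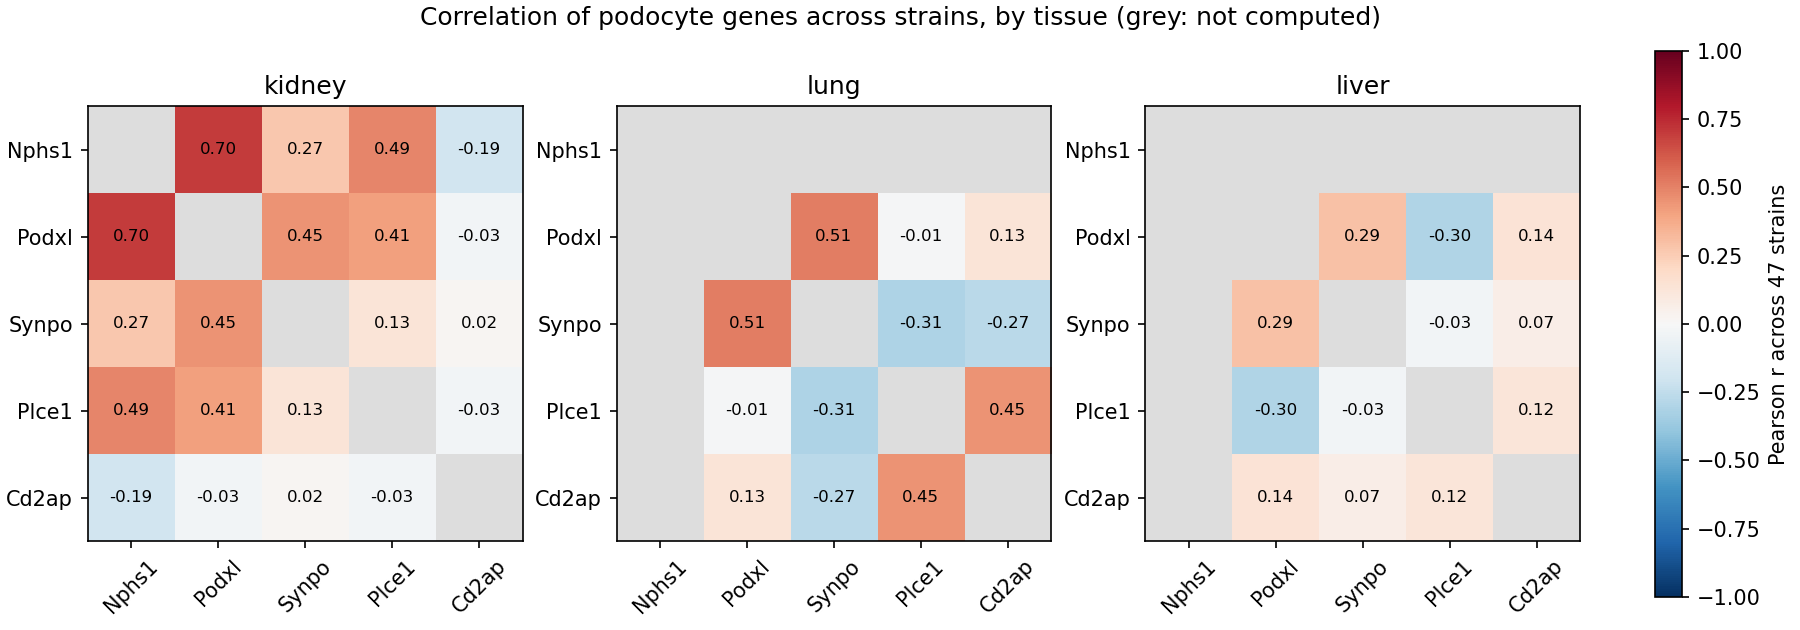
Pearson's r between podocyte genes across 47 strains in kidney, lung and liver, coloured from −1 to 1, with grey where a gene was not compared. In kidney the higher values are Nphs1 with Podxl (0.70), Nphs1 with Plce1 (0.49), Podxl with Synpo (0.45) and Podxl with Plce1 (0.41). In lung they are Podxl with Synpo (0.51) and Plce1 with Cd2ap (0.45).

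More genes followed the podocyte genes in lung than in kidney. In lung 310 genes rose with Podxl (2.47% of 12532), 175 with Synpo (1.4%), 879 with Plce1 (7.01%) and 1760 with Cd2ap (14%). Those that fell were 242 with Podxl, 82 with Synpo, 663 with Plce1 and 1882 with Cd2ap (15%). The strongest with Podxl was Heg1 (0.223 ± 0.0323, q = 0.00011), an endothelial receptor of the heart and vessels, and Epas1 (0.272 ± 0.0458, q = 0.00154), the hypoxia factor of lung endothelium, was also among them. Of the 8 endothelial markers Cdh5 (0.177 ± 0.0332, q = 0.00231) and Flt1 (0.109 ± 0.0341, q = 0.0737) passed. At an unadjusted p under 0.05 4 of them rose, where 7.22% of all genes did, and 7 had a slope above 0, where 44.4% of all genes had one. This was not particular to endothelial markers. With Podxl 2 of 10 actin cytoskeleton genes and 1 of 10 slit diaphragm genes also rose past the threshold, and 0 of either list fell past it. Slopes were above 0 for 6 and 7 of these 10. In liver 2 genes rose with Podxl (0.0215% of 9293), 2 with Synpo (0.0215%), 6 with Plce1 (0.0646%) and 169 with Cd2ap (1.82%). There 5 fell with Podxl, 2 with Synpo, 5 with Plce1 and 262 with Cd2ap. For these fits other scalings and left-out strains were tried in kidney only.

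A last comparison asked whether a strain that was high for a gene in one tissue was high in another. On rank inverse normal values Cd2ap in kidney and lung had r = 0.43 (p = 0.00269, rho 0.47, p = 0.00096, and 0.51, p = 0.00036, without the 2 farthest strains), with q = 0.0278 over 10057 genes, of which 17.5% passed. Plce1 in liver and lung had r = 0.40 (p = 0.00585, rho 0.45, p = 0.00164, and 0.38, p = 0.0103), with q = 0.0562 over 8518 genes, of which 13.5% passed. Both rested on the scaling, since on TPM without TMM the first was 0.18 (p = 0.226) and the second −0.11 (p = 0.464). Cd2ap in liver and lung had r = 0.35 (p = 0.0145) with rho 0.24 (p = 0.105) and q = 0.105. The other 9 of the 12 comparisons did not pass, and Podxl had r = −0.11 between kidney and lung (p = 0.447), 0.07 between kidney and liver (p = 0.629) and 0.03 between liver and lung (p = 0.843).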

How the data were processed

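RNA-seq files of 47 libraries each of kidney, lung and liver were used, grouped by their labels. Per the study's methods and processing notes, reads were aligned with STAR 2.5.3a to strain-specific pseudo-genomes built on mm9 and quantified with RSEM. The expected counts deposited by the authors were rounded (25 values over all files were not whole). The TPM deposited by the authors was used between genes and for correlations, and FPKM, which the authors also deposited, was left out. Sequencing batch is not among the labels used here and stayed out of each fit.

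Counts were scaled by TMM (edgeR 4.0.16), and genes over 1 CPM in at least 30% of libraries were fitted with limma-voom (limma 3.58.1, R 4.3.3) on tissue with strain as a replicate block, since the 3 tissues of a strain come from 1 mouse. Deviations from the tissue means correlated within strains (median r 0.208 for kidney and liver, 0.214 for kidney and lung, 0.179 for liver and lung) and not between strains (−0.00791, −0.00647 and −0.0049), and were over 0.1 in 45, 44 and 39 of 47 strains. Within a tissue, limma-voom used a gene's standardised log2 CPM as covariate. Correlations used 100000 two-sided permutations of strains. Each fit was tested on simulated data. Other scalings, filters, tools (DESeq2 1.42.0) and left-out strains were tried.

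The 6 genes and the lists were chosen with earlier results of these data known. Genes were named by rule: the 6 genes, up to 3 genes per list with the largest kidney and lung difference, the slit diaphragm and transcription factor genes, and the 3 genes most like each member in rank across kidneys. Some of these genes are not reported here by name and stay in the counts. Genes that passed the threshold with a member, and those named at unadjusted p, were named after their values were seen. A count of 3 in a library of median depth stands for 0.352 CPM in kidney, 0.22 in lung and 0.544 in liver.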

Additional observations from a re-analysis of the deposited data

Results flagged for a closer look

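The correlation of Plce1 and Cd2ap across strains was −0.03 in kidney and 0.45 in lung, a difference of −0.48 that passed a permutation test of the tissue labels within strains at an unadjusted p of 0.0394. It was 1 of 6 pairs tested for such a difference, and the cause was not tested. The kidney value depended on the scaling within the tissue: on TPM without TMM it was well above 0, as given below.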

How the results depend on the processing

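Over all alternatives 254 values kept their direction and their side of the threshold, counts of genes within 1.5 times included. Another 11 turned to the other direction, 20 came to pass the threshold, 4 no longer passed it, and 15 counts of genes moved further. Scaling moved most of the others. Plce1 in kidney against liver turned from −0.74 to 0.17 with total counts, 0.16 on log2(TPM + 1) and 0.19 on log2(TPM + 0.1). Cd2ap in kidney against lung turned from 0.36 to −0.12, −0.22 and −0.22. In the same order Cd2ap passed the threshold in kidney against liver at 1.41, 1.40 and 1.43 and in liver against lung at −1.54, −1.62 and −1.65. Podxl in kidney against lung passed it at −1.05 with DESeq2 size factors, −1.05 with the DESeq2 Wald test, −1.33 with total counts, −1.41 on log2(TPM + 1) and −1.42 on log2(TPM + 0.1), and Synpo at −1.16, −1.12, −1.41, −1.38 and −1.50. The share of called genes higher in the first tissue was 59.2% for kidney against liver, 47.5% for kidney against lung and 44.3% for liver against lung, and 84.9%, 32.1% and 14.4% with total counts, 83.3%, 29.9% and 13.1% on log2(TPM + 1), and 85%, 29.2% and 13% on log2(TPM + 0.1). Without the filter on low counts it was 57.5% for liver against lung.

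Without the replicate block the kidney against lung difference was 7.41 for Nphs1, −0.85 for Podxl, −0.95 for Synpo, −2.22 for Plce1 and 0.36 for Cd2ap, and no call of these genes changed in any pair of tissues.

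On TPM without TMM, correlations across kidneys were 0.47 for Nphs1 and Synpo, 0.45 for Nphs1 and Cd2ap, 0.67 for Podxl and Cd2ap, 0.43 for Synpo and Plce1, 0.47 for Synpo and Cd2ap and 0.63 for Plce1 and Cd2ap. Between tissues they were 0.18 for Cd2ap in kidney and lung, −0.11 for Plce1 and −0.05 for Cd2ap in liver and lung. Synpo in liver and lung was 0.31 on log2(TPM + 1). With the 2 most distant strains left out, Podxl and Synpo in kidney had r = 0.25 and Cd2ap in liver and lung had r = 0.25, and the slope of Podxl with Nphs1 was 0.134 (q = 0.174). The cause was not tested.

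Counts of genes varying with Nphs1, Podxl or Plce1 across kidneys were small and moved. For Nphs1 (3 genes) the count was 1 without the filter, 1 with the collecting duct level as a covariate, 1 without CC004 and 0 without the 2 farthest strains. For Podxl (6 genes) it was 27 with DESeq2 size factors, 20 without the 2 farthest strains, 3 without the filter and 3 without CC004. For Plce1 (1 gene) it was 21 without CC032 and CC042, 3 on rank inverse normal values, 2 with DESeq2 size factors, and 0 without the filter, with the covariate, without the 2 farthest strains and without CC004. Leaving out CC004 was chosen after seeing the data.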

Other observations

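Among the genes most like Cd2ap in rank, Atrx, a chromatin remodeller, was among the first 3 both across kidneys (rho 0.751 over 47 strains) and across lungs (rho 0.721), where Rbm26 (0.756) and Pnisr (0.735), RNA-binding proteins, led. Kidney and lung of a strain come from the same mouse, and these values are a description without a test.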
